A study of Mus musculus with 6 samples.

Results

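Hes1, Hes5, Hey1, Hey2, Heyl, Nrarp and Dtx1 are genes that the active form of the Notch receptor switches on directly in many tissues, and their RNA is commonly read as a measure of Notch signalling. These 7 genes were picked by symbol from the 47360 gene symbols of a bulk RNA-seq table of mouse dental epithelial organoids (DEOs). The choice was made with earlier results of these data known. The organoids had been grown in Matrigel for 14 days from adult dental epithelial stem cells of the apical bud of the incisor, and the cells came from female C57BL/6J mice of 9 weeks, with no transgene or deletion named in the labels. All media contained N-acetylcysteine, the kinase inhibitor Y27632 at 10 µM, Wnt3a and R-spondin1 conditioned media, and EGF at 100 µg per ml. The +N medium added Noggin, a BMP antagonist, at 200 µg per ml, and the other 3 media were +N with dibenzazepine (DBZ) at 10 µM (+ND), with FGF10 at 100 µg per ml (+NF), or with both (+NFD). Doses are printed in the units of the labels, which could not be checked; the study's methods text gives DBZ in millimolar rather than micromolar units. Each medium has 1 library, so no difference between media has a replicate check and no test was made, and the sources used here do not say how many mice or wells went into a library. Intervals given below are 95% intervals that cover counting error only, not differences between cultures.

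Notch is a receptor on the cell surface that is cut when it binds Delta or Jagged ligands on a neighbouring cell. The last cut, by the gamma-secretase complex, frees the intracellular domain, which enters the nucleus, joins the DNA-binding protein RBPJ and a Mastermind coactivator, and turns on target genes. DBZ blocks gamma-secretase, so the media with DBZ address how the targets read when this step is inhibited, once without and once with FGF10. Hes and Hey genes encode basic helix-loop-helix repressors, Nrarp encodes an ankyrin repeat protein that feeds back on the Notch complex, and Dtx1 encodes a Deltex ubiquitin ligase that acts on Notch receptors. In stratified epithelia Notch is known for driving cells out of the basal layer and into the suprabasal layers.

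RBPJ binds DNA at letters close to GTGGGAA, and Hes and Hey proteins bind N-boxes, searched here as CACNAG, and class C or E-box sites, searched here as CACGNG. The 250 bases before the start of the members' transcripts are shown because the members, though all known as Notch targets, differed widely in level in these cultures, and the letters that the pathway's own factors bind can be compared between them. RefSeq promoter entries on GRCm38.p6, the same build as the files, matched 4 of the 7 members, namely Nrarp, Hes5, Hey2 and Dtx1; Hes1, Hey1 and Heyl had no entry. Capitals mark GTGGGAA or its reverse complement TTCCCAC, and each sequence runs 5′ to 3′ on the strand of its gene. The Nrarp window is chr2:25180508-25180757 on the + strand, the Hes5 window is chr4:154960673-154960922 on the + strand and the Hey2 window is chr10:30842784-30843033 on the - strand, of which the last 18 bases lie in the longest annotated Hey2 transcript.
Nrarp: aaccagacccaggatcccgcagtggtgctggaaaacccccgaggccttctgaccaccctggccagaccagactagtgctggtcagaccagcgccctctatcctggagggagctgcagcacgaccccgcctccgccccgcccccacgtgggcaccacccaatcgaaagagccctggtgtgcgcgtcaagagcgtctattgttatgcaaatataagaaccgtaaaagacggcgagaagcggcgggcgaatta
Hes5: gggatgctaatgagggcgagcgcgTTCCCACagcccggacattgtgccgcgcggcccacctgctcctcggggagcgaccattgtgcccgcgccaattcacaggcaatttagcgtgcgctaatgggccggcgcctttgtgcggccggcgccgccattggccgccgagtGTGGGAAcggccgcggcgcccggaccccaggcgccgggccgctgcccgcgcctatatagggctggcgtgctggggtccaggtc
Hey2: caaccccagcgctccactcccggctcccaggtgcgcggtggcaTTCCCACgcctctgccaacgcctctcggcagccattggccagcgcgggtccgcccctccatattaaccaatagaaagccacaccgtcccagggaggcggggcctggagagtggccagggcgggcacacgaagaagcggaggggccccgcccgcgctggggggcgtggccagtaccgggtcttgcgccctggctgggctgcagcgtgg

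Both strands were searched. The Hes5 window held GTGGGAA 2 times, from 226 to 220 bases before the start on the other strand and from 83 to 77 bases before it on the gene's strand. The Hey2 window held it once, from 207 to 201 bases before the start on the other strand, and the Nrarp and Dtx1 windows held it 0 times. Over 32851 windows of the same length, 5.42% held GTGGGAA at least once and 0.161% held it 2 or more times. The Nrarp window held CACNAG 2 times and CACGNG at 1 position, and the Dtx1 window, which lies inside a longer annotated transcript and is not printed, held CACNAG once and CACGNG at 2 positions, 1 of which is the same 6 bases as its CACNAG. Of all windows, 36.7% held CACNAG and 23.5% held CACGNG at least once, and 8.18% and 5.4% held them 2 or more times. A match describes letters in these windows and is not evidence of binding.

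**Figure D1:**
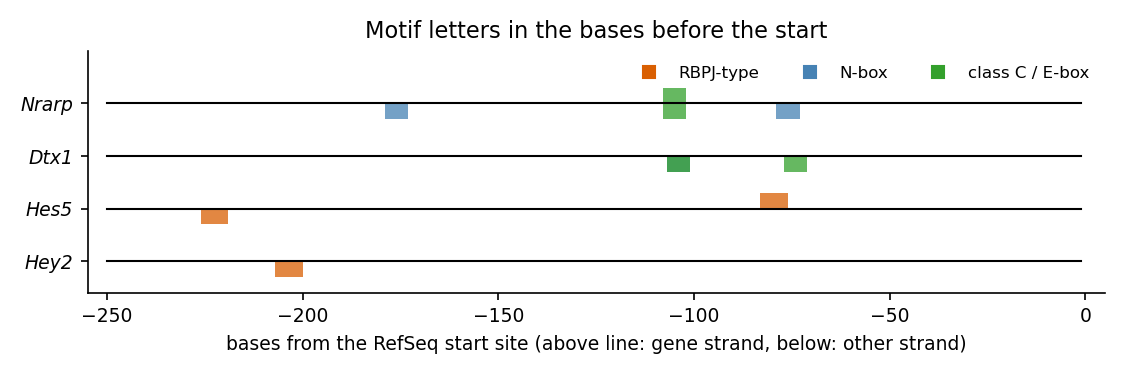
Positions of the searched letters in the bases before the RefSeq start of the 4 members that have an entry (x axis, bases from the start; boxes above a line are on the gene's strand, boxes below on the other strand). Hes5 has 2 RBPJ-type matches and Hey2 has 1, while Nrarp and Dtx1 have N-box and class C or E-box matches only; the darker Dtx1 box is a match to both.

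The levels below are in FPKM, the number of sequenced fragments scaled to transcript length and library size, which lets levels of different genes be compared per length. The table gives no read totals. Among 8367 genes that have only 1 transcript in the annotation, 1000 nt or longer, low values fell around multiples of 1 fragment, and by this measure the +ND library held 0.796 times the fragments of +N, the +NF library 1.04 times and the +NFD library 1.05 times. The steps are broad, so the fragment numbers given for members are approximate. All 8 epithelial markers were at an FPKM of at least 1 in every library, led by Krt14, at 12652 in +N, or in +NFD by Krt5, at 6177. The libraries were not purely epithelial: summed over 8 macrophage markers FPKM ranged from 411 to 658, and over 7 fibroblast markers from 93.6 to 371. The 8 endothelial markers summed to between 0.219 and 0.517 FPKM, with Cldn5 at 0 in all 4 libraries, and the 4 Schwann cell markers to between 0.321 and 0.882, with Sox10 at 0. In bulk RNA, fewer cells of a type and less RNA per cell cannot be told apart.

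Hes1 and Nrarp were the members read at a substantial level, and both were lower in each medium with DBZ than in each medium without it. The same arrangement held for 15.3% of the 13748 genes that reach 1 FPKM in any library. Hes1 made up 89.2% of the summed FPKM of the 7 members in +N and 91.8% in +NF, against 96.1% in +ND and 95.9% in +NFD. Dtx1 and Hey1 stayed below an FPKM of 1 in all 4 libraries, Hey2 and Heyl rested on 6 fragments or fewer per library, and Hes5 was listed at 0. Only Hes1 and Nrarp, 2 of 7, therefore passed the filter used for ratios, which asks for 1 FPKM or more in at least 1 of the 2 libraries compared.

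**Figure D2:**
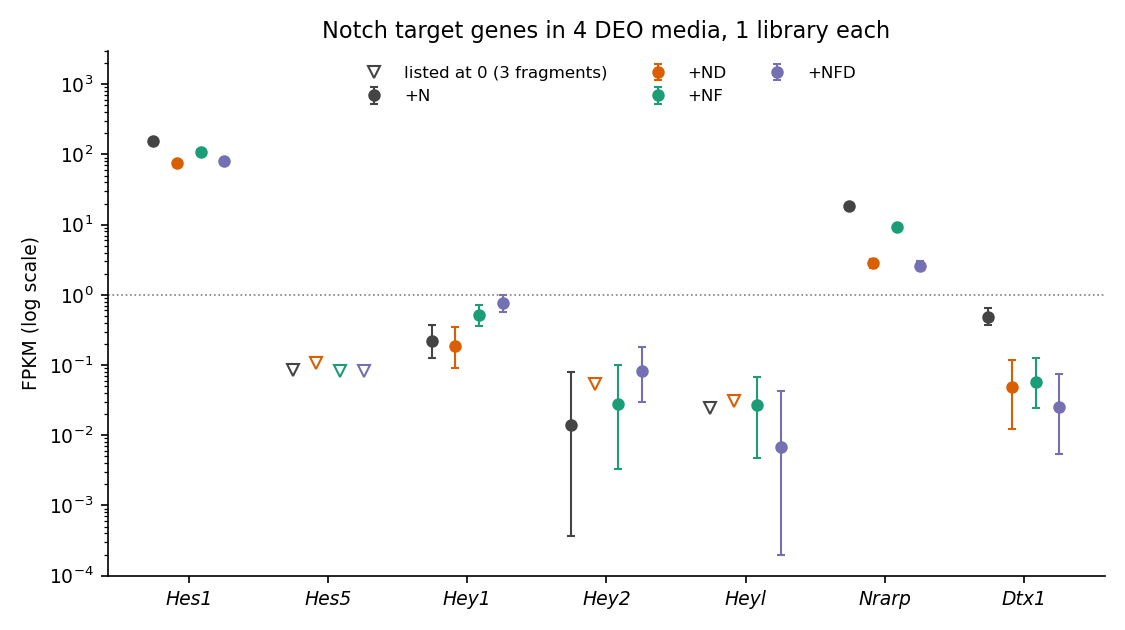
FPKM of the 7 Notch target genes on a log axis in the 4 media, 1 library each. Points are deposited values, bars are 95% intervals of counting error, open triangles stand at 3 fragments for genes listed at 0, and the dotted line is the filter at 1 FPKM, above which only Hes1 and Nrarp lie.

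Hes1 (ENSMUSG00000022528) lies on chromosome 16 of GRCm38 from 30064384 to 30067796 on the + strand and encodes the repressor that holds back differentiation genes in many progenitor cells. Its level was 157 FPKM in +N and 109 in +NF, against 74.6 in +ND and 80.1 in +NFD, from about 6275, 4563, 2380 and 3384 fragments in that order. The order of the levels was +N, +NF, +NFD and +ND. Both libraries with DBZ thus lay below both without it, as they did for 15.3% of genes. Ordered by FPKM from the highest, Hes1 was gene 546 in +N and 803 in +NF, and gene 1285 and 1189 in their counterparts with DBZ. No other annotated gene overlaps it.

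Nrarp (ENSMUSG00000078202), a gene of 1 exon on chromosome 2 from 25180758 to 25183339 on the + strand, was at 18.2 FPKM in +N and 9.12 in +NF, against 2.80 in +ND and 2.60 in +NFD, from about 1281, 671, 157 and 193 fragments in that order. The 2 libraries with DBZ stood within each other's counting error, and both were well below +NF and +N. A limit attaches to these values: Gm38287, annotated on the opposite strand, has all of its 2051 exon bases inside the Nrarp exon of 2582 bases. How strand was treated in the counting is not given in the sources used here, so fragments of the 2 genes cannot be told apart. Gm38287 was listed at 38.5 FPKM in +N and 27.1 in +NF, against 8.72 in +ND and 7.37 in +NFD, above Nrarp in each library and in the same direction with DBZ. Summed, the 2 entries were at 56.7 FPKM in +N and 36.2 in +NF, against 11.5 in +ND and 9.97 in +NFD.

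The other members were read from few fragments. Dtx1 (ENSMUSG00000029603, chromosome 5 from 120680202 to 120711927, - strand) was at 0.490 FPKM in +N and 0.0582 in +NF, against 0.0485 in +ND and 0.0252 in +NFD, from about 54, 7, 4 and 3 fragments in that order. Its +N library stood apart from the other 3, whose counting intervals overlapped. Hey1 (ENSMUSG00000040289, chromosome 3 from 8663359 to 8667256, - strand), known in vessels and bone as a Notch and BMP target, was at 0.220 FPKM in +N and 0.190 in +ND, against 0.519 in +NF and 0.754 in +NFD, from about 15, 10, 36 and 53 fragments in that order. Both libraries with FGF10 were above both without it, an arrangement not seen for Hes1 or Nrarp. It was a common one, held by 26.6% of the 16669 genes with at least 10 estimated fragments in any library.

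Hey2 (ENSMUSG00000019789, chromosome 10 from 30832359 to 30842801, - strand), best known from the heart and arteries, was at 0.0141 FPKM in +N and 0 in +ND, against 0.0276 in +NF and 0.0817 in +NFD, or about 1, 0, 2 and 6 fragments in that order. Heyl (ENSMUSG00000032744, chromosome 4 from 123233556 to 123249875, + strand), a gene of vascular smooth muscle, was at 0 in +N and +ND, 0.0270 in +NF and 0.00673 in +NFD, or about 3 and 1 fragments in the latter 2. Hes5 (ENSMUSG00000048001, chromosome 4 from 154960923 to 154962371, + strand), the main Notch readout of neural progenitors, was listed at 0 in every library. A count of 0 allows up to 3 fragments, which for Hes5 is between 0.0819 FPKM in +NFD and 0.109 in +ND. Gm20421, which overlaps Hes5 on the opposite strand, was at 0 in 3 libraries and at 0.0983 FPKM in +NF. At this depth the direction of Hey2, Heyl and Hes5 with either factor could not be read.

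Without FGF10, the question is how the targets read when gamma-secretase is blocked in the Noggin medium. In +ND, Nrarp was at 15.4% of its +N level (13.0 to 18.2) and Hes1 at 47.7% (45.5 to 50.0), the former a 6.50-fold lower FPKM. On the log2((FPKM + 1)/(FPKM + 1)) scale, which understates changes of low genes, the ratios were -2.34 for Nrarp and -1.06 for Hes1. Both of the 2 members that passed the filter were thus lower by 2-fold or more and 0 were higher by 2-fold or more, where of all 13173 genes that passed 5.29% lay that low and 5.88% that high. Ordered from the lowest ratio, Nrarp was gene 129 and Hes1 gene 636 of these 13173. Hes1 lies close to the limit of 2-fold, and the median of all genes was 0.10, so a gene in the middle of the distribution was listed slightly higher in +ND. For Nrarp and Gm38287 summed, the level in +ND was 20.3% of that in +N and the log2 ratio -2.20.

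Dtx1 did not pass the filter but its fragments set the 2 libraries apart, with 9.91% of the +N level in +ND (2.45 to 25.2). Hey1 in +ND was at 86.3% of +N, with an interval from 33.7 to 199 that holds both a lower and a higher level.

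With FGF10 in both media, Nrarp and Hes1 were again lower with DBZ, by smaller ratios. In +NFD, Nrarp was at 28.5% of its +NF level (24.1 to 33.5), 3.51-fold lower, with a log2 ratio of -1.49. Hes1 was at 73.4% (70.2 to 76.8), 1.36-fold lower, with a log2 ratio of -0.44. Of the 2 members that passed, 1, Nrarp, was lower by 2-fold or more and 0 were higher by as much, beside 2.69% and 3.72% of all 13349 genes. Nrarp was gene 171 and Hes1 gene 1206 from the lowest ratio. The summed entries of Nrarp and Gm38287 were at 27.6% of +NF, a log2 ratio of -1.76.

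Dtx1 was at 43.4% of +NF in +NFD, with an interval from 7.08 to 186 that rests on about 7 and 3 fragments and gives no direction. Hey1 was at 145% (93.7 to 229), so its interval also holds a level of 100%.

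**Figure D3:**
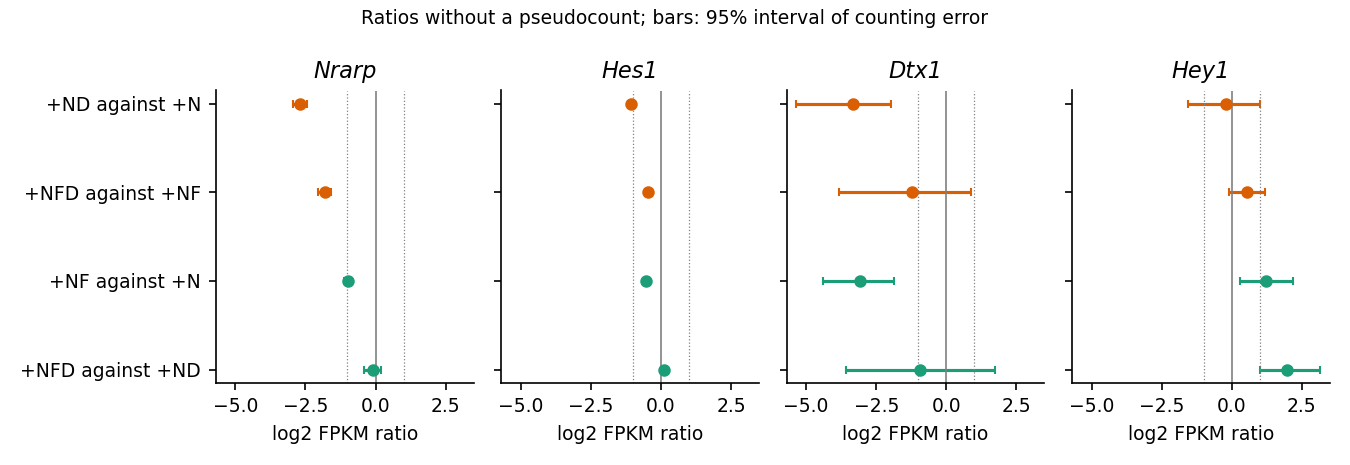
log2 FPKM ratios without a pseudocount for the 4 members with enough fragments in the 4 comparisons, with 95% intervals of counting error; orange marks the DBZ pairs, green the FGF10 pairs, and dotted lines a 2-fold ratio. Nrarp is past 2-fold lower in both DBZ pairs (15.4% and 28.5%), Hes1 in +ND against +N only (47.7%), and the intervals of Dtx1 and Hey1 are wide.

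Because the 2 DBZ pairs share no library, they can be set side by side. Nrarp was the 1 member at least 2-fold lower in both, and among the 12774 genes that passed the filter in both pairs 272 were, or 2.13%. Both Hes1 and Nrarp were lower by any amount in both pairs, as were 23% of all genes. The 2 libraries with DBZ were both below the 2 without it for Hes1 and Nrarp, which is also so for 15.3% of the 13748 genes that reach 1 FPKM in any library. When the log2 ratio in the presence of FGF10 is set against that in its absence, Hes1 differed by 0.62 and Nrarp by 0.84. Without a pseudocount the differences were 0.62 (0.53 to 0.72) for Hes1 and 0.89 (0.56 to 1.22) for Nrarp, above counting error, though with 1 library per medium the spread between cultures is unknown. For Nrarp and Gm38287 summed the difference was 0.44. For Dtx1 and Hey1 the intervals, from -0.31 to 4.57 and from -0.55 to 2.06, include 0. Smaller DBZ ratios with FGF10 were not particular to the members. Of all genes, 5.29% were at least 2-fold lower with DBZ and 5.88% higher without FGF10. With FGF10 the shares were 2.69% and 3.72%. How the differences of Hes1 and Nrarp rank among those of all genes is not given here.

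**Figure D4:**
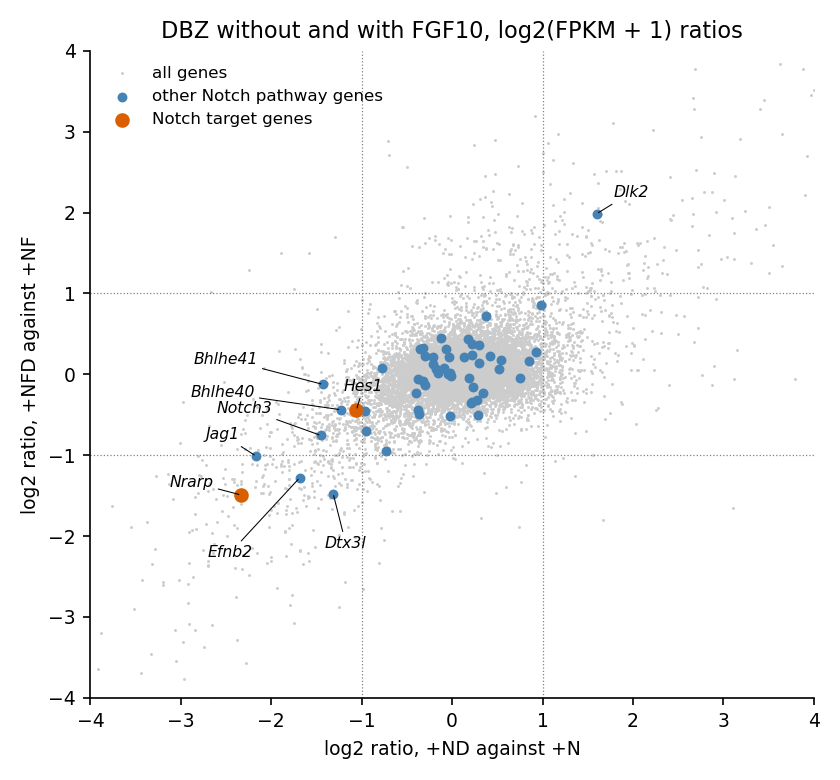
log2((FPKM + 1)/(FPKM + 1)) of every gene that passed the filter in both DBZ pairs, without FGF10 (x axis) and with FGF10 (y axis); dotted lines mark 2-fold ratios and 89 genes lie outside the plotted range. Nrarp, at -2.34 and -1.49, is past 2-fold lower on both axes and Hes1, at -1.06 and -0.44, on the x axis only.

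FGF10 was compared in the absence and in the presence of DBZ, and these comparisons share libraries with the DBZ pairs. In +NF, Hes1 was at 69.7% of its +N level (67.0 to 72.4), a log2 ratio of -0.52, and Nrarp at 50.2% (45.6 to 55.1), a log2 ratio of -0.92. Nrarp was 1.99-fold lower without a pseudocount and stood just inside the limit, so 0 of the 2 members that passed were lower by 2-fold or more and 0 higher by as much, beside 2.44% and 2.76% of all 13090 genes. With all ratios centred on their median of 0.12, Nrarp was at -1.04 and past the limit, while for the entries of Nrarp and Gm38287 summed, with no centring, the log2 ratio was -0.63. Dtx1 in +NF was at 11.9% of +N (4.77 to 27.4), close to its share in +ND.

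In the presence of DBZ the levels of the 2 main members differed little with FGF10. Hes1 in +NFD was at 107% of +ND (102 to 113), a log2 ratio of 0.10 that became 0.0069 when ratios were centred, and Nrarp was at 93.0% (74.8 to 115). Of the 2 members, 0 were lower by 2-fold or more and 0 higher by as much, beside 3.11% and 3.39% of all 13293 genes. The sum of the 7 members was 175 FPKM in +N and 119 in +NF, against 77.7 in +ND and 83.6 in +NFD. Hes1 made up 89.2% or more of it in every library, so the sum follows Hes1 and says little of the other members. Hes1 exceeded Nrarp 8.62-fold in +N and 12.0-fold in +NF, against 26.7-fold in +ND and 30.8-fold in +NFD. Set against Nrarp and Gm38287 summed, the same ratios were 2.76 in +N and 3.01 in +NF, against 6.48 in +ND and 8.03 in +NFD.

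Hey1 was higher with FGF10 in both pairs, from few fragments. It was at 236% of +N in +NF (123 to 452) and at 397% of +ND in +NFD (201 to 882), and neither interval reached 100%. Hey1 did not pass the FPKM filter. When genes were instead kept with at least 10 estimated fragments in the higher library and compared without a pseudocount, a choice made after the data were seen, Hey1 was at least 2-fold higher in both, as were 9.15% and 10.5% of all genes, and 26.6% of genes had both libraries with FGF10 above both without. In +NFD, where Hey1 was highest, fibroblast markers were highest too: their summed FPKM was 371, with 93.6 in +NF, 126 in +ND and 151 in +N, and 5 of 7 were at least 2-fold higher in +NFD than in +NF and than in +ND. Col1a1, the main collagen of these cells, was at 153 FPKM in +NFD and between 50.3 and 74.3 elsewhere, and Pdgfra was at 3.91 in +NFD and between 0.675 and 1.70 elsewhere. Dcn, a further fibroblast marker, differed less, at 5.82 FPKM in +NFD and between 3.70 and 5.15 elsewhere. The 8 mural cell markers, led by Acta2, summed to between 8.14 and 20.8 FPKM, and 3 of them passed 1 FPKM in +NFD, where Pdgfrb was at 6.63 FPKM against 0.965 in +NF. The endothelial markers Pecam1 and Cdh5 were at 0.201 FPKM or less in every library. The part of other cell types in the Hey1 and Hey2 values was not tested. In +NF, where Hey1 was also higher than in +N, the fibroblast sum was the lowest of the 4.

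Epithelial and macrophage markers bear on Hes1, which many cell types express. The sum of the 8 epithelial markers was 20766 FPKM in +N and 17029 in +NF, against 11958 in +ND and 14199 in +NFD, the same order of libraries as for Hes1, and it is carried by the keratins Krt5 and Krt14. It stood at 57.6% in +ND relative to +N and at 83.4% in +NFD relative to +NF, where Hes1 stood at 47.7% and 73.4% and Nrarp at 15.4% and 28.5%. Within the list, Krt14, Epcam and Cdh1 were at least 2-fold lower in +ND against +N, beside 5.29% of all genes. Epcam, an adhesion protein of epithelia, was also that low in +NFD against +NF, with log2 ratios of -1.15 and -1.14. Of all genes 2.13% were that low in both pairs. Trp63, which marks basal cells, was instead at 88.5 FPKM in +N and 166 in +ND. The macrophage sum was 658, 539, 468 and 411 FPKM in the order +N, +ND, +NF and +NFD. It is carried by Lyz2, at 528, 408, 373 and 288 FPKM in that order. Most other macrophage markers did not follow it in +NFD against +NF, where 6 of the 7 that passed the filter were higher and 1 lower. In +ND against +N, 5 of 8 were lower and 3 higher. The part of cell composition in the Hes1 and Nrarp values was not tested.

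The genes of the same families gave values next to those of the members. Among 7 other Hes and related genes, 3 passed the filter, Hes6, Bhlhe40 and Bhlhe41. Bhlhe40, a repressor known from the circadian clock and from hypoxia, was at 257 FPKM in +N and 162 in +NF, against 109 in +ND and 120 in +NFD, the same order of libraries as Hes1. Bhlhe41, its closest relative, was at 28.6 and 19.3 FPKM without DBZ and at 9.99 and 17.6 with it, the first of each pair without FGF10. These 2 were at least 2-fold lower in +ND than in +N, beside 5.29% of all genes, and 0 of the 3 were in +NFD against +NF, beside 2.69%, and the medians of the 3 were -1.23 and -0.13 log2. Among the 4 other Deltex genes, 3 passed. Dtx3l, a ubiquitin ligase that works with a PARP in the DNA damage and interferon responses, was at least 2-fold lower in both pairs, as were 2.13% of all genes. It was at 9.80 FPKM in +N and 9.29 in +NF, against 3.34 in +ND and 2.70 in +NFD. Unlike Dtx1, Dtx3l was at nearly the same level in +N and +NF.

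Of 14 receptor, ligand and Fringe genes, 10 passed the filter. Jag1, a Notch ligand, was lower by at least 2-fold in both DBZ pairs, as were 2.13% of all genes. It was at 66.4 FPKM in +N and 44.4 in +NF, against 14.0 in +ND and 21.5 in +NFD. Dlk2, a related protein without the domain that activates Notch, was higher by at least 2-fold in both, as were 1.84% of all genes. Its levels were 1.94 and 1.72 FPKM without DBZ and 7.92 and 9.75 with it. The median log2 ratio of the 10 was 0.13 in +ND against +N, beside 0.10 for all genes, and 0.15 in +NFD against +NF, beside 0.048 for all genes. Among 9 further genes reported as Notch targets in other tissues, 6 passed. Their medians were -0.51 and -0.55 log2 in the 2 pairs, beside 0.10 and 0.048 for all genes. In each pair 4 of the 6 were lower and 2 higher by any amount, and Myc was higher in both, at 0.42 and 0.23 log2. Efnb2, an ephrin ligand, was at least 2-fold lower in both pairs, beside 2.13% of all genes. Its level was 13.6 FPKM in +N and 21.9 in +NF, against 3.52 in +ND and 8.41 in +NFD. Notch3, which is also a receptor and was singled out after its values were seen, was at least 2-fold lower in +ND against +N only, beside 5.29% of all genes in that pair.

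For the machinery that DBZ acts on and the nuclear partners of Notch, counts are read against all genes, of which 5.29% were at least 2-fold lower and 5.88% at least 2-fold higher in +ND against +N, and 2.69% and 3.72% in +NFD against +NF. With shares this small, a count of 0 in a short list is no result about the list. All 7 gamma-secretase genes passed the filter and 0 differed by 2-fold in either DBZ pair, and the largest ratio in each pair was that of Ncstn, a subunit that binds the substrate, at -0.96 and -0.45 log2. Of 17 genes of the RBPJ complex and its corepressors 16 passed and 0 differed by 2-fold. Rbpj itself was at 13.8 FPKM in +N and 21.7 in +NF, against 27.2 in +ND and 26.5 in +NFD, the largest ratio of the list in the first pair at 0.93, and Maml2, a coactivator, had the largest in the second at -0.50. Of 9 regulators of the receptors and ligands 8 passed and 0 differed by 2-fold, with Mib1, a ubiquitin ligase for ligands, at 0.75 in the first pair and Adam17, a protease that cuts at the cell surface, at -0.44 in the second. A list of 7 genes of the proneural families, in which Hes proteins repress some members, was read at low levels or not at all. In both pairs 6 of the 7 stayed below the filter. Ascl2 was at 0.247 FPKM in +N and 0.583 in +NF, against 1.46 in +ND and 1.86 in +NFD, log2 ratios of 0.98 and 0.85. Whether Hes proteins act on Ascl2 in these cultures was not tested.

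**Figure D5:**
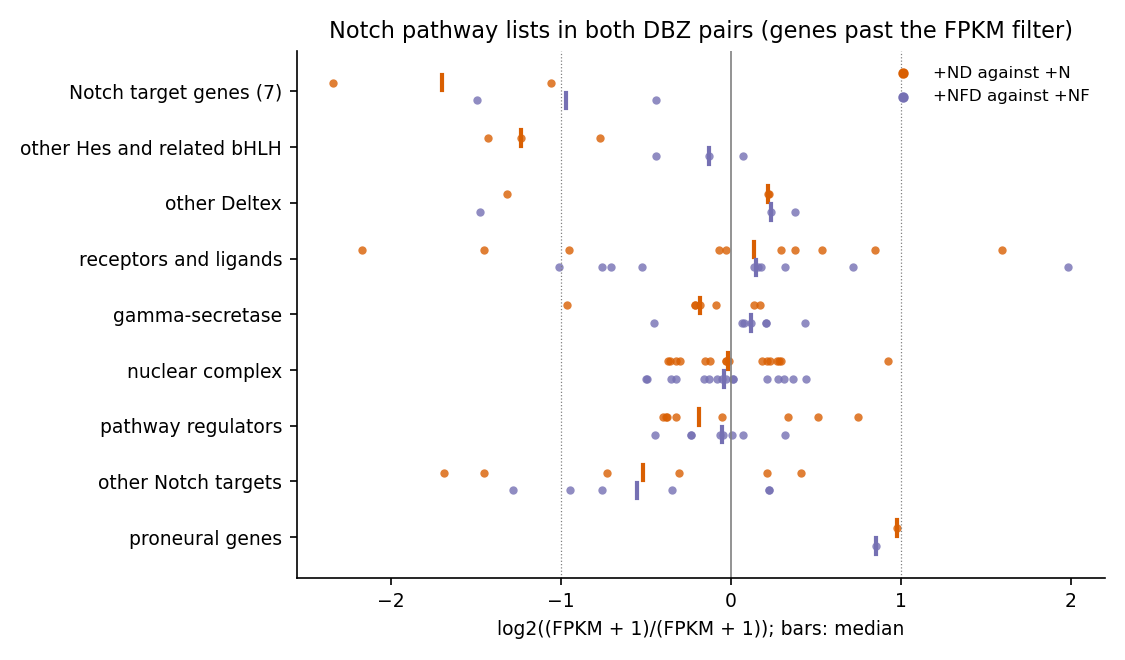
log2((FPKM + 1)/(FPKM + 1)) in both DBZ pairs for the Notch target genes and 8 lists of related genes; each point is a gene that passed the filter and bars are medians. The 2 target genes that passed lie below 0 in both pairs, and the gamma-secretase, nuclear complex and regulator lists lie within 2-fold.

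The genes most like Hes1 and Nrarp were named by the Euclidean distance between centred log2(FPKM + 1) values over the 4 libraries, among 13748 genes. For Hes1 these were Sirpb1c at a distance of 0.049, Slc35f5 at 0.057 and Mettl20 at 0.059. Slc35f5 was at 58.7 FPKM in +N and 42.4 in +NF, against 29.2 in +ND and 30.9 in +NFD. Sirpb1c, a gene of myeloid cells, was at 1.07 FPKM in +N and 0.437 in +NF, against 0.0282 in +ND and 0.0573 in +NFD, levels near or under the pseudocount of 1. For Nrarp, Prdx6 and Fam84a, both at 0.20, were among the 3 nearest. Prdx6, an antioxidant enzyme, was at 783 FPKM in +N and 351 in +NF, against 135 in +ND and 124 in +NFD. The measure rests on 4 libraries and says nothing of shared control.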

How the data were processed

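The sources used here state that total RNA was made into TruSeq libraries and sequenced on an Illumina HiSeq sequencer. Per the methods and the submitters' processing notes, the authors used FastQC 0.11.9 and Trim Galore 0.6.5, mapped to GRCm38 by TopHat 2.1.1, and ran Cufflinks, whose FPKM are the deposited values; the annotation release, strand setting and Cufflinks options are not given in the sources used here. FPKM divides by length and library size, so that abundant transcripts can lower all other values, and a low value may stand for a handful of fragments. Of 6 media, +NJ and +NFJ were not analysed here.

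Entries of 1 symbol were summed (123 symbols; 0 of the 7 members). Ratios are log2((FPKM + 1)/(FPKM + 1)), taken where either library reached 1 FPKM and counted at 2-fold. Fragments were estimated from FPKM, the longest coding transcript in GENCODE M21 and the value of 1 fragment; intervals are exact (Poisson, or conditional binomial for ratios), those of the difference between DBZ pairs are normal approximations, and a 0 was allowed 3 fragments. Members, gene lists and marker lists were chosen with earlier results of these data known. Named outside the 7 are list genes past 2-fold in both DBZ pairs, otherwise the largest ratio in each pair, the 3 genes most like a member, and the leading and defining markers. Of 8 housekeeping genes 0 were listed at 0. In +ND against +N, 6 of them were higher by any amount and 2 lower, from Gapdh at 79.1% of +N to Ppia at 151%. Their median log2 ratio there was 0.21, beside 0.10 for all genes. A further listed gene and a further gene like Nrarp are not reported here. Alternatives are given in the closing section. Scripts were tested on simulated data and ran on Python 3.11.15, scipy 1.17.1, numpy 2.4.6, matplotlib 3.10.9 and pandas 2.3.3.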

Additional observations from a re-analysis of the deposited data

Results flagged for a closer look

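For 3 members the ratio with a factor pointed in opposite directions in the absence and presence of the other factor, and the difference was not tested, since each medium has 1 library. Values are log2((FPKM + 1)/(FPKM + 1)). Hey1 with DBZ was at -0.036 without FGF10 and 0.21 with FGF10, both inside counting error. Hey2 with DBZ was at -0.020 and 0.074, from 6 fragments or fewer in any library. Hes1 with FGF10 was at -0.52 without DBZ and 0.10 with DBZ, and the second value was 0.0069 when ratios were centred on the median of all genes.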

How the results depend on the processing

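No paired analysis was possible because each medium has 1 library and the labels' replicate number 1 pairs nothing; for the same reason no library could be left out. Of 108 values for the counts of members and the differences between DBZ pairs under alternatives, 102 stayed within 1.5 times the reported count or within the counting interval of the reported difference and 6 did not; 0 of all values reversed. Within these limits, the members lower in +ND against +N went from 2 to 3 with the filter on fragments, since Dtx1 passes it through its +N value alone. Under that filter 9.65% of all 15801 genes lay that low. In +NF against +N, 0 members were counted as lower. With ratios centred on their median 1 was at least 2-fold lower (Nrarp), beside 412 of all 13090 genes. With the filter on fragments 1 was too (Dtx1), beside 5.63% of all 15958 genes. At a 1.5-fold limit 1 was at least 1.5-fold lower (Nrarp), beside 742 of all 13090 genes. The filter on fragments, chosen after seeing the data, also gave 1 higher member, Hey1, in +NF against +N and 1 in +NFD against +ND, beside 9.15% and 10.5% of all genes. With the Nrarp entry summed with Gm38287, likewise chosen after seeing the data, the difference of its DBZ ratio with and without FGF10 was 0.44 in place of 0.84, and no count of members changed. The causes were not tested.

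Counts over all genes, which set the background, depended more on the choices. In +ND against +N the 697 lower genes became 1522 at a 1.5-fold limit and 1525 with the fragment filter, and the 774 higher became 1212 with a pseudocount of 0.1, 1222 with none, 2281 and 1945. In +NFD against +NF, 359 lower became 823 and 994, and 497 higher became 307 with the filter raised to 5 FPKM, 1011 at 1.5-fold and 1519 with the fragment filter. In +NF against +N, 319 lower became 480 with a pseudocount of 0.1, 742 and 899, and 361 higher became 712, 720 with none, 1305 and 1460. In +NFD against +ND, 414 lower became 1071 and 925, and 450 higher became 818, 829, 290 with that filter of 5 FPKM, 1572 and 1677. Centring, which moved the median of all genes by 0.10 in +ND against +N and by 0.12 in +NF against +N, turned 697 lower and 774 higher into 842 and 615 and 319 lower and 361 higher into 412 and 248, and for +NFD against +ND 414 lower and 450 higher into 506 and 345. Depth limits Dtx1, Hey1, Hey2, Heyl and Hes5, which had 54 fragments or fewer in each library.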
